A study of Mus musculus with 4 samples.

Results

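The kinesin superfamily was examined in RNA-seq data of activated mouse CD8+ T cells, with the kinesins of cell division set against all others. Members were taken by gene symbol, as every symbol made of Kif or Kifc followed by a digit, which gave 40 of the 17559 genes in the files. Of these, 12 were assigned to mitosis (*Kif2c*, *Kif4*, *Kif11*, *Kif14*, *Kif15*, *Kif18a*, *Kif18b*, *Kif20a*, *Kif20b*, *Kif22*, *Kif23* and *Kifc1*), and the other 28 formed the comparison set. The symbol rule also caught 3 entries that encode no motor. These are *Kif1bp*, a kinesin-binding protein, *Kif16bos*, a transcript on the strand opposite *Kif16b*, and *Kif4-ps*, a pseudogene.

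The cells came from C57BL/6 mice carrying OT-I, a transgenic T cell receptor for an ovalbumin peptide, from tissue labelled LN. After magnetic purification to more than 95% they spent 2 d on plate-bound anti-CD3 and anti-CD28 with IL-2, then 2 d in IL-2 alone, in every group. The control group then stayed without drug, and the NaBu group was kept for 12 h with NaBu at 1 mM. NaBu commonly stands for sodium butyrate, which inhibits histone deacetylases. Each group had 2 libraries, and the labels do not say whether they came from separate animals or cultures, so each p-value covers the spread of these libraries alone, and that spread may be technical. Counts assigned to genes totalled 19857701 to 20548571 per library. The 7 T cell markers listed, *Cd3d*, *Cd3e*, *Cd3g*, *Cd8a*, *Cd8b1*, *Cd2* and *Lck*, each had an FPKM of 93.9 or more in every library, although 6 were called lower after NaBu and 1, *Cd3g*, higher, with log2 fold changes from -0.74 to 0.41 (FPKM is fragments per kilobase of transcript scaled to the number of mapped fragments, so levels of different genes can be set side by side).

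Kinesins are ATP-driven motors that walk along microtubules or take them apart. Those of mitosis build the spindle, move and align chromosomes and organise the midzone where the cell divides, and their genes are mostly transcribed as cells approach division. Transport kinesins carry vesicles, organelles and ciliary cargo, several are best known from neurons, and in cytotoxic T cells kinesin-1 is known to take part in the outward movement of lytic granules. Many genes of late cell cycle carry a short promoter element, the cell cycle genes homology region (CHR), which the DREAM and MuvB complexes bind, often with a CCAAT box, bound by NF-Y, close by.

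Promoter stretches of 8 mitotic kinesins are shown because all 8 hold the CHR letters within 30 bases of the transcript start, and 3 comparison genes are shown beside them. The 3 are examples and do not stand for all other kinesins. Among those not shown, *Kif26b* holds the CHR letters at base -9 and *Kif1a* at base -44 of a start site. Each stretch runs from 70 bases before the RefSeq start site to 30 bases after it on the gene's own strand, in build GRCm38.p6, the assembly also called mm10. Capitals mark CHR (TTTGAA, or TTCAAA on the other strand) and CCAAT (or ATTGG on the other strand), with overlaps between motifs allowed.
Kif11, chr19:37376312-37376411, plus strand: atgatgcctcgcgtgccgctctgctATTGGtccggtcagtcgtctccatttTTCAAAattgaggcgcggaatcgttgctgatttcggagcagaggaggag
Kif15, chr9:122951011-122951110, plus strand: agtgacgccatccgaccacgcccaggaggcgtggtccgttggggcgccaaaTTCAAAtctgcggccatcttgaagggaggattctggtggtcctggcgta
Kif22, chr7:127042391-127042490, minus strand: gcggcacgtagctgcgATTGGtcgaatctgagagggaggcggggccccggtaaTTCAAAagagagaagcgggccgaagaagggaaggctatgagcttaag
Kif18b, chr11:102925095-102925194, minus strand: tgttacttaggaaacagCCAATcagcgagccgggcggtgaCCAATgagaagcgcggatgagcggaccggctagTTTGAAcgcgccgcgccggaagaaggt
Kif4, chrX:100625995-100626094, plus strand: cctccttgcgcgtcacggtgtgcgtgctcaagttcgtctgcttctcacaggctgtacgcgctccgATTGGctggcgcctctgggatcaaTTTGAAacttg
Kif23, chr9:61946770-61946869, minus strand: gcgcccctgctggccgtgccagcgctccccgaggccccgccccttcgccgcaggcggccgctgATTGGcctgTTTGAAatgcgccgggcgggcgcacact
Kif20b, chr19:34922288-34922387, plus strand: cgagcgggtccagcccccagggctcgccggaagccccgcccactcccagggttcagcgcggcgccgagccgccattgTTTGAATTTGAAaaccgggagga
Kifc1, chr17:33890604-33890703, minus strand: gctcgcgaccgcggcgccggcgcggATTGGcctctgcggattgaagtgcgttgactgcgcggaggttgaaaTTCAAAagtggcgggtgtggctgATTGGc
Kifc5b, chr17:26917021-26917120, plus strand: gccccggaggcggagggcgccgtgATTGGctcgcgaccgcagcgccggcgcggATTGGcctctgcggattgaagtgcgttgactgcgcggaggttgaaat
Kif3b, chr2:153291346-153291445, plus strand: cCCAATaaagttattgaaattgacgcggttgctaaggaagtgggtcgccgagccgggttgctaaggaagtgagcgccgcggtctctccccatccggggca
Kif5c, chr2:49619216-49619315, plus strand: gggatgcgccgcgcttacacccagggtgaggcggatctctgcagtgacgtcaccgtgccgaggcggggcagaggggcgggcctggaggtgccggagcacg

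Every mitotic kinesin was lower after NaBu, while most of the other tested kinesins were higher. By the quasi-likelihood test of edgeR, with a threshold of 0.05 on p adjusted by Benjamini-Hochberg, all 12 mitotic genes were called lower, as were 34.1% of all 12943 genes tested. Of the other 28 symbols, 24 had enough counts for the test, of which 16 passed as higher (34.5% of all genes tested), 4 passed as lower and 4 did not pass. Calls in either direction made up 68.6% of all genes tested. The median log2 fold change was -2.45 for the mitotic kinesins and 1.11 for the tested others, beside 0.005 for all genes tested. A called fall of 2-fold or more was found for all 12 mitotic kinesins and for 8.11% of all genes tested, and a called rise of that size for 12 of the 24 others and for 14.9% of all genes tested. The test with a fold of 1.5 as its null (edgeR's glmTreat) still called all 12 mitotic genes lower, and 13 of the others higher and 2 lower, without *Kif3c*, *Kif13a*, *Kif13b*, *Kif16b* and *Kif21b*. Under that null 2214 of all 12943 genes tested were called higher and 1565 lower. *Kif19a* and *Kif26a* entered the test only through their NaBu counts, and among the other 22 tested symbols 14 were higher and 4 lower, 10 rose 2-fold or more and the median log2 fold change was 0.79. On the log2(FPKM + 1) scale with limma and no filter on low values, the median of the others was 0.26. That median runs over all 28 symbols, including those with too few counts for the edgeR test. With a filter at an FPKM of 1 in at least 2 libraries, it was 0.85 on the same scale.

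The mitotic kinesins summed to 392.3 and 416.9 FPKM in controls 1 and 2 and to 86.3 and 87.1 FPKM in NaBu 1 and NaBu 2. That is a 4.67-fold lower sum after NaBu, from 404.6 ± 17.4 to 86.7 ± 0.544 (SD, n = 2 libraries in each group). The other 28 symbols summed to 188.8, 186.8, 221.8 and 215.8 in the same order, a 1.16-fold higher sum. Mitotic kinesins made up 67.5% and 69.1% of summed kinesin FPKM without NaBu and 28.01% and 28.8% with it. In bulk RNA, fewer cells in division and less mitotic RNA per cell cannot be told apart.

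**Figure D1:**
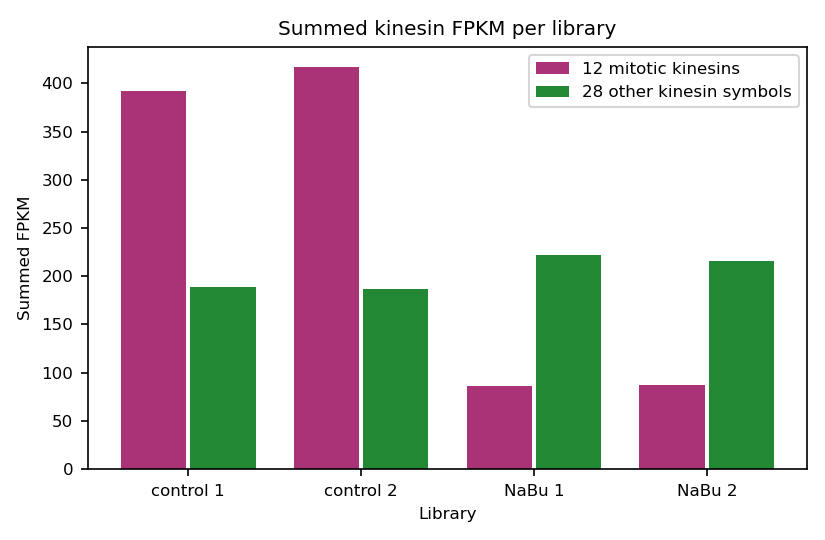
Bars give the summed FPKM (vertical axis, from 0) of the 12 mitotic kinesins and of the 28 other kinesin symbols in each of the 4 libraries on the horizontal axis. The mitotic sum lies above the other sum in both controls, at 392.3 and 416.9, and below it in both NaBu libraries, at 86.3 and 87.1.

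Among the spindle assembly motors, *Kif11* (Entrez gene 16551, chr19:37376382-37421863) encodes the tetrameric kinesin-5 that pushes spindle poles apart. Its FPKM was 50.4 and 58.5 in controls 1 and 2 and 10.5 and 9.97 in NaBu 1 and NaBu 2, the order used for all values that follow. Both NaBu libraries lay far below the controls (log2 fold change -2.51 ± 0.08 SE, edgeR adjusted p = 4.14e-09). *Kif15* (chr9:122951081-123018733), a kinesin-12 that can hold spindle poles apart when kinesin-5 is blocked, went from 33.8 and 39.0 to 8.78 and 8.54. *Kifc1* (chr17:33875664-33890633) encodes a minus-end motor that focuses spindle poles, and went from 54.2 and 50.1 to 13.96 and 14.7. *Kif15* fell 4.5-fold and *Kifc1* 3.9-fold, and in neither gene did the groups overlap.

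*Kifc5b* (chr17:26917091-26932579), counted here among the other kinesins, is a near copy of *Kifc1*. The 2 genes share 1372 distinct 50-base stretches of transcript sequence in the GENCODE M21 annotation, 38.6% of those of *Kifc1*, so reads could be divided between them. *Kifc5b* went from an FPKM of 10.9 and 9.86 to 3.72 and 3.79, a 2.95-fold fall. Both genes together held 3161 and 2939 control counts, against 842 and 878 with NaBu. Of these counts *Kifc5b* took 18.5% and 18.2% without NaBu and 23.2% and 22.7% with it. The sum of the pair was thus lower, and it does not depend on how shared reads were divided. For no other kinesin did a second kinesin share more than 0.37% of its 50-base stretches.

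The chromosome motors fell as well. *Kif22* (chr7:127027729-127042467), which binds chromosome arms and pushes them toward the spindle equator, went from an FPKM of 55.9 and 58.2 to 9.99 and 10.8, a 5.86-fold fall. *Kif4* (chrX:100626065-100727271), a chromosome-bound motor that also acts at the spindle midzone, had 24.8 in each control and 4.17 and 4.33 after NaBu. *Kif2c* (chr4:117159633-117182624) encodes MCAK, which takes microtubules apart at centromeres. Its FPKM went from 25.5 and 28.6 to 5.22 and 5.71. *Kif18a* (chr2:109280738-109341749), which dampens chromosome oscillation, was the lowest of the mitotic kinesins in control 1, at 6.84, with 9.12 in control 2 and 1.36 and 1.29 after NaBu. *Kif18b* (chr11:102905518-102925134) shortens astral microtubules, and went from 30.9 and 32.3 to 6.79 and 6.96. Across these 5 genes the log2 fold change ran from -2.68 for *Kif18a* to -2.29 for *Kif18b*, with SEs of 0.07 to 0.16, so they lay close together. *Cenpe*, the kinetochore kinesin whose symbol falls outside the rule, had 22.9 and 25.9 in the controls and 5.17 and 5.62 after NaBu, a log2 fold change of -2.27 ± 0.08 (SE, edgeR adjusted p = 5.87e-09).

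The cytokinesis motors held both the strongest and the weakest fall of the 12. *Kif20a*, which carries the chromosomal passenger complex to the midzone, had the highest FPKM of all kinesins in each control, at 59.7 and 60.4, and 6.45 and 6.05 after NaBu. Its log2 fold change was -3.36 ± 0.07 (SE, edgeR adjusted p = 1.29e-09), and it dropped to rank 17 of the 40 kinesin symbols in each NaBu library. *Kif23* (chr9:61917277-61946810), the motor subunit of centralspindlin, went from 25.6 and 27.4 to 12.5 in each NaBu library. Its log2 fold change was -1.18 ± 0.07 (SE, edgeR adjusted p = 1.16e-07), a smaller change than that of any other mitotic kinesin, the next being -1.96 ± 0.07 for *Kifc1*. *Kif14* (chr1:136466301-136555938), which brings citron kinase to the midbody, had 8.31 and 8.88 in the controls and 1.5 and 1.55 after NaBu. *Kif20b* (chr19:34922335-34975750), a midzone motor, had 16.4 and 19.7 against 5.02 and 4.75. All 12 mitotic kinesins had NaBu values below both controls, as had 35.9% of all genes tested.

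**Figure D2:**
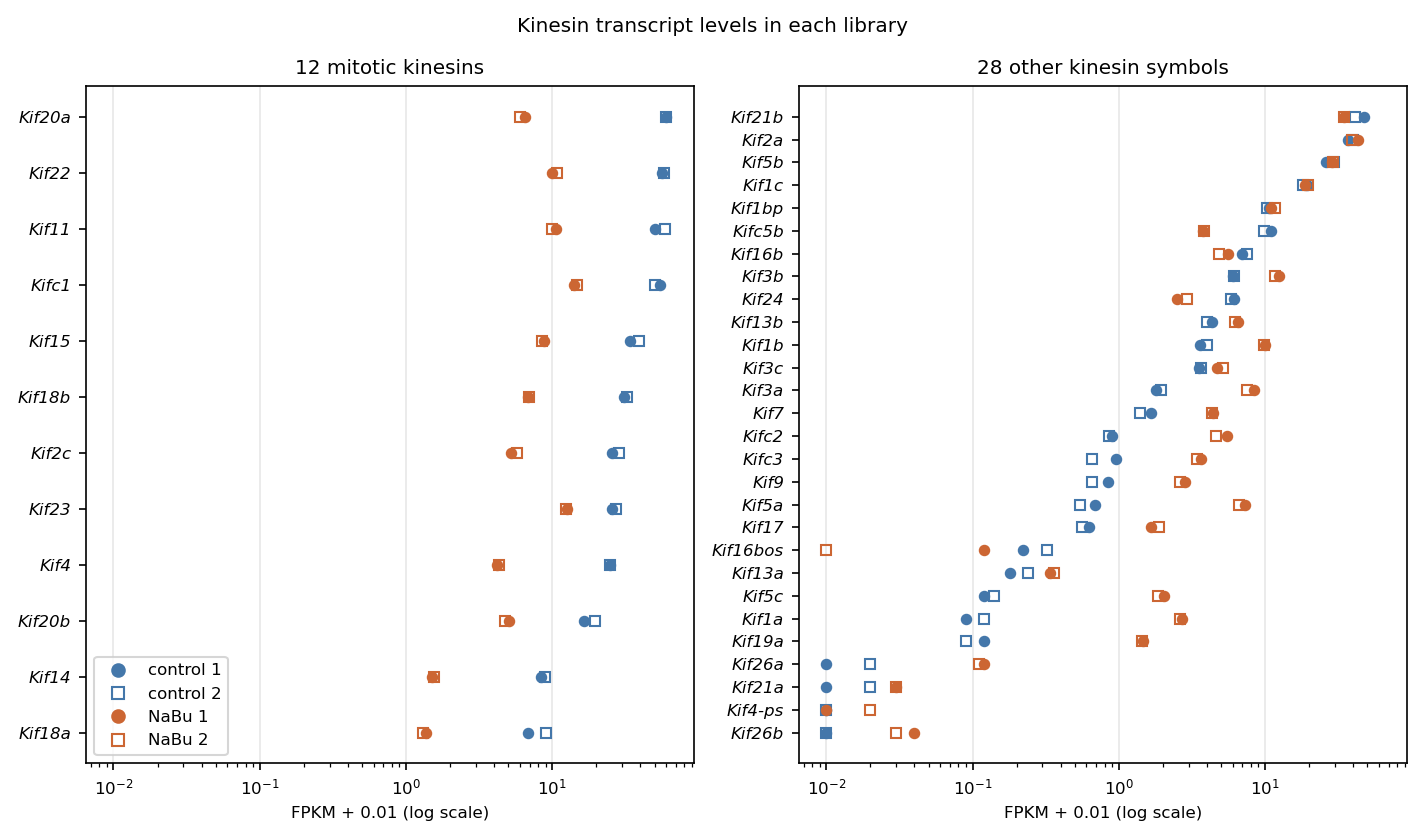
Each row is a kinesin symbol and each point its FPKM in a library, plus 0.01 so that values of 0 can be drawn, on a log scale (filled circles, replicate 1; open squares, replicate 2; blue, control; orange, NaBu). In the left panel all NaBu points of the 12 mitotic kinesins lie left of the controls, and in the right panel 8 symbols have both controls below an FPKM of 1 and both NaBu points above it.

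Partners of these motors, on a list of 16 genes, were all called lower (median log2 fold change -2.19), as were 34.1% of all genes tested. *Plk1*, the kinase that docks on *Kif20a* protein, had a log2 fold change of -3.01 and *Nusap1*, a spindle microtubule binder, one of -2.93. *Tpx2*, which loads *Kif11* and *Kif15* protein onto the spindle, fell 3.87-fold. *Prc1*, the midzone bundler that works with *Kif4*, fell 4.38-fold. *Racgap1*, the other subunit of centralspindlin, went from 80.9 and 80.8 to 29.3 and 28.8, a log2 fold change of -1.57 ± 0.06 (SE) beside -1.18 for *Kif23*. *Cdca8*, a passenger complex subunit, fell 6.06-fold.

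The promoters of the mitotic and other kinesins differed in the share that held the CHR letters. RefSeq promoter windows, from 250 bases before to 50 after the start, were on hand for 31 of the 40 symbols, 11 mitotic and 20 other, some with 2 start sites, and *Kif20a* was the mitotic kinesin not among them. The letters TTTGAA occurred on either strand in 10 of 11 mitotic windows (90.9%), in 3 of 24 windows of other kinesins (12.5%), in 17.9% of all 32851 promoter windows and in 12.1% of windows of tested genes. *Kif18a* was the mitotic kinesin searched without a match. CCAAT was found in 7 of 11 mitotic windows (63.6%), 9 of 24 other windows (37.5%) and 37.4% of all windows, and the same 7 mitotic windows held both motifs, against 6.95% of all windows. With the start of the match within 30 bases of the start site, a limit chosen after the positions were seen, CHR was present in 8 of the 11 mitotic windows and in 3.14% of all windows, and in 2 of the 24 other windows, of *Kif26b* and *Kifc5b*. Matches began 19 bases before the start in *Kif11* and *Kif15*, 17 before it in *Kif22*, and at bases 2 to 20 of the transcript in *Kif18b*, *Kif4*, *Kif23*, *Kif20b* and *Kifc1*. *Kif20b* holds the letters in tandem, at bases 8 and 14. The *Kifc5b* window carries the same letters from base 30, the last base of the stretch shown, so the match runs past its end and is not marked. Of the 14 windows of other kinesins that were called higher, 1 held CHR, in *Kif1a*. These windows came from 11 genes, with *Kif1a*, *Kif1b* and *Kif9* counted at 2 start sites each. *Kif5a*, *Kif13b*, *Kif19a*, *Kifc2* and *Kifc3* were called higher but had no window. These are matches of letters, with no test of the shares, and binding was not measured.

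**Figure D3:**
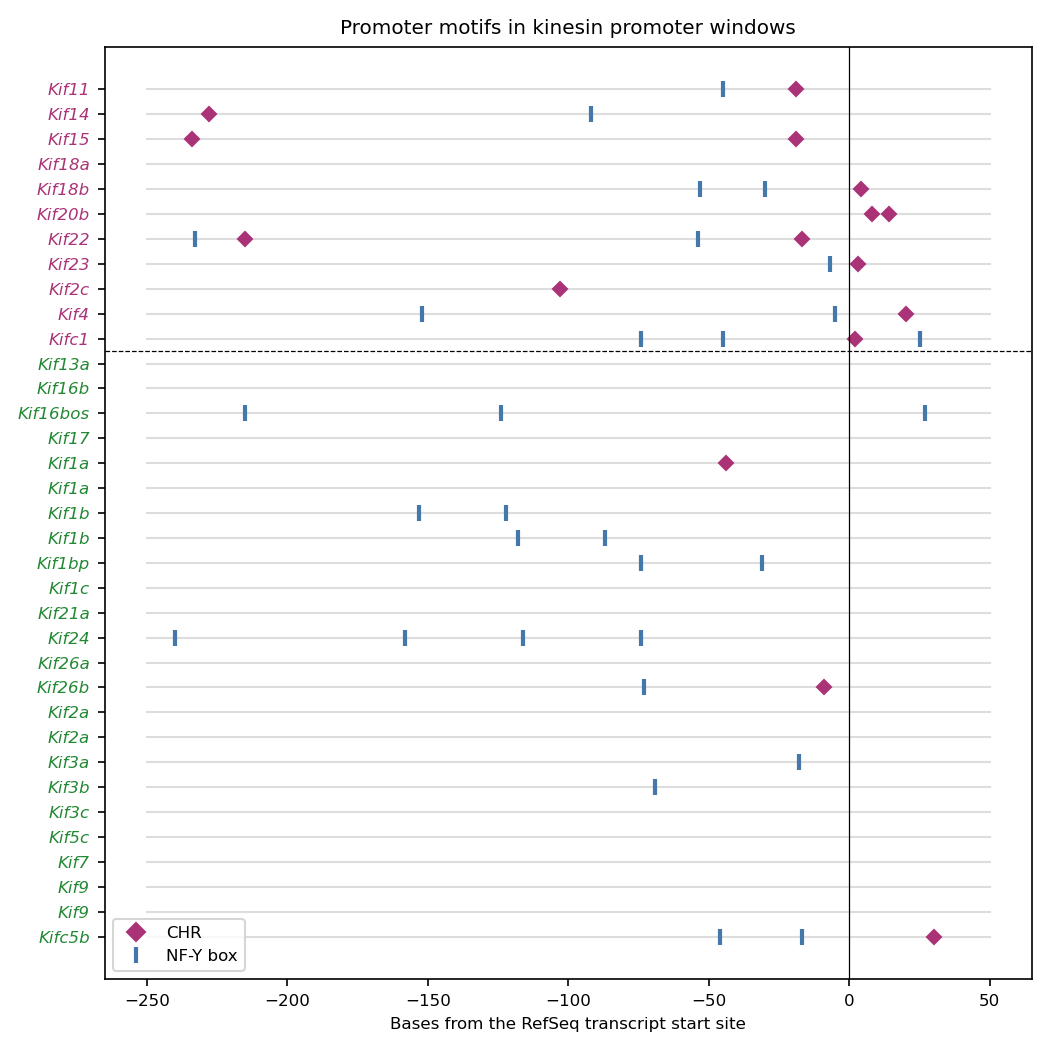
Each line is a promoter window, with bases from the RefSeq start site on the horizontal axis, mitotic kinesins above the dashed line and other kinesins below it. Diamonds mark CHR and bars mark the NF-Y box (CCAAT on either strand). Diamonds occur in 10 of the 11 mitotic windows, 8 of them within 30 bases of the start, and in 3 of the 24 others.

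Kinesin-1, the main plus-end transport motor, was split between its 3 heavy chain genes. *Kif5b*, the widely expressed chain, held an FPKM of 25.9 and 29.6 without NaBu and 28.8 and 29.0 with it. The groups overlapped and the gene did not pass (log2 fold change -0.04 ± 0.07 SE, edgeR adjusted p = 0.656). Its small change took the opposite sign on library totals, at 0.06, and without control 1 it was called lower (log2 fold change -0.14, adjusted p = 0.0377). *Kif5a* (chr10:127225695-127266348), known from neurons, went from 0.68 and 0.53 to 7.27 and 6.59, a log2 fold change of 3.40 ± 0.13 (SE, edgeR adjusted p = 9.39e-09). *Kif5c* (chr2:49619286-49774778), also a neuronal chain, went from 0.11 and 0.13 to 2.04 and 1.85, a log2 fold change of 3.92 ± 0.18 (SE, adjusted p = 3.17e-08). *Kif5b* therefore made up 97.0% and 97.8% of the summed FPKM of the 3 chains in the controls and 75.6% and 77.5% after NaBu. No 50-base stretch was shared between the transcripts of these 3 genes.

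The light chains and cargo adaptors of kinesin-1 and related motors, a list of 12 genes in the files, had 9 members called higher and none lower (median log2 fold change 0.48), beside 34.5% and 34.1% of all genes tested. Without *Kif1bp*, which is also a kinesin symbol, and *Mapk8ip1*, 8 of 10 were higher. *Klc3*, a light chain, went from 4.87 and 3.96 to 18.3 and 18.2. *Klc2* rose 1.88-fold and *Klc1*, the most abundant light chain here, rose 1.32-fold to 35.4 and 33.0. *Mapk8ip1*, the scaffold JIP1 that links kinesin-1 to cargo, rose 26.1-fold from 0.17 and 0.15 to 4.83 and 4.02, and passed the filter on low counts only through its NaBu libraries. *Arl8b*, a GTPase that couples lysosomes to kinesin-1, rose 1.89-fold, from 25.6 and 28.8 to 55.3 and 54.4.

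All 4 kinesin-2 genes were called higher, beside 34.5% of all genes tested. *Kif3a* (chr11:53565701-53604248), a motor subunit of the heterotrimer that carries cargo out along cilia, went from an FPKM of 1.78 and 1.93 to 8.32 and 7.49, a log2 fold change of 1.99 ± 0.10 (SE, edgeR adjusted p = 3.99e-08). *Kif3b*, its usual partner, went from 6.01 and 6.15 to 12.5 and 11.7 and rose 1.86-fold. *Kifap3*, the accessory subunit of the same trimer, went from 2.35 and 2.52 to 3.92 and 3.5 and rose 1.43-fold. The FPKM of *Kif3b* was thus 3.38 and 3.19 times that of *Kif3a* in the controls and 1.5 and 1.56 times that of *Kif3a* after NaBu. *Kif3c*, an alternative partner of *Kif3a* protein, went from 3.5 and 3.64 to 4.67 and 5.11, and its call was lost without NaBu 2 (edgeR adjusted p = 0.071). *Kif17*, a homodimeric kinesin-2 known from dendrites and cilia, rose 2.77-fold, from 0.61 and 0.55 to 1.66 and 1.87.

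Genes of intraflagellar transport, the ciliary cargo system of kinesin-2, had 12 of 19 members called higher and 1 lower (median log2 fold change 0.51), beside 34.5% and 34.1% of all genes tested. *Ift81*, a tubulin-binding subunit, went from an FPKM of 0.07 and 0.03 to 1.49 and 0.85, and like *Ift43* it passed the filter on low counts only through NaBu. Among the 17 members that passed in the controls, 10 were higher and 1 lower. *Ift43* went from 0.73 and 0.55 to 7.74 and 8.34, *Wdr35* from 0.59 and 0.82 to 3.24 and 3.01, and *Ift88* from 1.96 and 1.89 to 3.85 and 3.54. *Cluap1* was the member that fell, with a log2 fold change of -0.31.

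Kinesin-3 motors, which carry vesicles and endosomes, moved in both directions. *Kif1a* (chr1:93015455-93102039), the carrier of synaptic vesicle precursors in neurons, went from an FPKM of 0.08 and 0.11 to 2.69 and 2.61. Behind these levels were 13 and 18 counts in the controls against 447 and 433. Its log2 fold change of 4.76 ± 0.17 (SE, edgeR adjusted p = 5.82e-09) was the highest of the tested kinesins in this fit. It was exceeded by *Kif26a* without control 2, where *Kif26a* has no control counts left, and by *Kif5a* in limma on log2(FPKM + 1), at 1.74 for *Kif1a* and 2.31 for *Kif5a*. *Kif1b*, a mitochondria and vesicle motor, rose 2.52-fold, from 3.58 and 4.0 to 9.97 and 9.85. *Kif13b*, also called GAKIN, which binds the scaffold protein Dlg, rose 1.42-fold, from 4.31 and 4.02 to 6.48 and 6.19. *Kif16b*, a motor of early endosomes, had 6.93 and 7.48 against 5.6 and 4.81 and fell 1.48-fold. *Kif1c*, a ubiquitous vesicle motor, had 19.2 and 18.1 against 18.6 and 19.6 and did not pass (log2 fold change -0.06, edgeR adjusted p = 0.385, or 0.03 on library totals). *Kif13a*, an endosome motor, stayed at an FPKM of 0.35 or less in every library, and its call as higher (edgeR adjusted p = 0.0377) was lost without control 1, NaBu 1 or NaBu 2 (adjusted p of 0.107 to 0.183). *Kif1bp*, which binds several of these motors, had 10.6 and 10.3 against 11.02 and 11.7 and did not pass.

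The remaining families were read by role. *Kif21b*, a kinesin-4 that limits microtubule growth and is known from the T cell synapse, had the highest FPKM of the other kinesins in each control, at 47.0 and 40.8, and fell 1.36-fold to 34.8 and 34.5. *Kif7*, a ciliary regulator of Hedgehog signalling, rose 2.68-fold, from 1.65 and 1.38 to 4.38 and 4.31. *Kif2a*, a kinesin-13 that takes microtubules apart in dividing and resting cells, had 36.7 and 39.7 in the controls against 42.8 and 39.5 and did not pass (log2 fold change 0.01 ± 0.07 SE, edgeR adjusted p = 0.893), and was the most abundant kinesin after NaBu. *Kif24*, a kinesin-13 of the centriole that holds back cilium formation, fell 2.38-fold, from 6.14 and 5.79 to 2.47 and 2.89, in the same direction as the mitotic group. The minus-end motors *Kifc2*, known from neurons, and *Kifc3*, known from the Golgi and cell junctions, rose 5.43-fold and 4.18-fold. *Kifc2* went from 0.89 and 0.85 to 5.51 and 4.57, and *Kifc3* from 0.94 and 0.64 to 3.64 and 3.39. *Kif9*, a motor of motile cilia and sperm tails, rose 3.42-fold, from 0.83 and 0.65 to 2.83 and 2.6. *Kif19a*, which shortens microtubules at ciliary tips, had 8 and 6 counts in the controls against 100 and 99 after NaBu, an FPKM of 0.11 and 0.08 against 1.46 and 1.44.

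**Figure D4:**
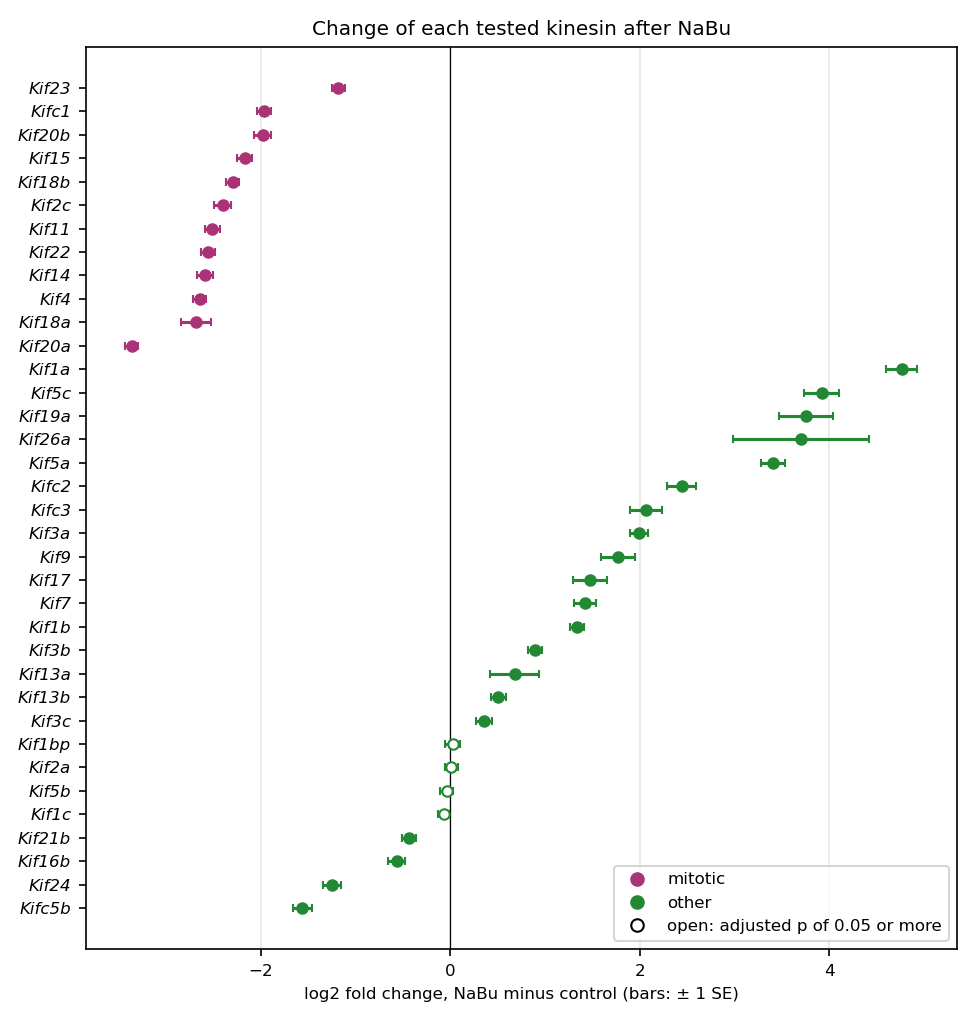
Points give the log2 fold change of NaBu against control for the 36 tested kinesin symbols, with bars of 1 SE, mitotic in purple and other in green, and open points for genes that did not pass. The mitotic genes run from -3.36 (*Kif20a*) to -1.18 (*Kif23*) and the others from -1.56 (*Kifc5b*) to 4.76 (*Kif1a*).

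Among the 24 tested kinesins outside mitosis, 17 had both NaBu values above both controls in FPKM (48% of all genes tested), 4 had both below, and *Kif1c*, *Kif2a* and *Kif5b* overlapped. In all, 8 kinesins lay under an FPKM of 1 in both controls and at 1 or above in both NaBu libraries. They were *Kif1a*, *Kif5a*, *Kif5c*, *Kif9*, *Kif17*, *Kif19a*, *Kifc2* and *Kifc3*, and none went the other way, so that symbols at 1 or above numbered 26 in each control and 34 in each NaBu library. Genes of any kind at an FPKM of 1 or above also grew in number. Control 1 had 10722 of them, control 2 had 10627, NaBu 1 had 11220 and NaBu 2 had 11250. The share of all genes that made the same switch was not counted, so the switch was not shown to be particular to kinesins. *Kif13a* and *Kif26a* were tested and stayed under 1 in every library. *Kif26a*, an atypical kinesin without motor activity, had 0 and 2 counts in the controls and 16 and 14 after NaBu (edgeR adjusted p = 0.000923). It passed the filter on low counts only through its NaBu libraries. The last 4 symbols had too few counts for the test. *Kif26b* had 0 counts in each control and 4 and 3 after NaBu, *Kif21a* had 3 or fewer counts in every library, as had *Kif16bos*, and *Kif4-ps* had 1 count in all.

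Of 11 neuronal markers listed, 8 were in the files, and their summed FPKM was 1.27 and 1.39 in the controls and 9.51 and 8.18 after NaBu. Most of the NaBu sum came from *Eno2*, at 5.89 and 4.74, with *Tubb3* at 1.55 in each library and *Syp* at 1.23 and 0.95. The neuronal markers *Snap25* and *Dcx* were at 0.07 or less in every library. Myeloid markers, of which 5 of 7 were in the files, summed to 2.07 and 1.98 in the controls and 8.3 and 6.95 after NaBu. *Itgam* (0.45 in each control, 4.83 and 3.79 after NaBu) and *Mpeg1* (0.2 and 0.39, then 1.96 and 1.86) were called higher and carried this rise. *Fcgr3* (1.21 and 0.94, then 1.31 and 1.12) did not pass. *Adgre1* was at 0.02 or less and *Cd14* at 0.21 or less in every library. B cell markers, 3 of 5 in the files, summed to 5.73 and 4.07 against 2.62 and 1.96. NK cell markers, 3 of 3, summed to 15.0 and 14.9 against 8.38 and 9.57. *Klrb1c* (10.5 and 9.24, then 4.94 and 5.57) and *Klre1* (4.44 and 5.53, then 3.44 and 4.0) made up nearly all of it and were called lower, and *Ncr1* was at 0.1 or less. Of the CD4 T cell markers, 2 of 2 in the files, *Cd4* was at 0.02 and 0.03 in the controls and 0.66 and 0.65 after NaBu. It was called higher. *Foxp3* (0.24 and 0.12, then 0.23 and 0.24) was not called. Both genes entered the test only through their NaBu counts. The part of such cells in the rise of the other kinesins was not tested.

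Dynein and dynactin, the motor complex that walks the opposite way along microtubules, moved in both directions. Of 29 tested genes 12 were called higher and 7 lower (median log2 fold change 0.14), beside 34.5% and 34.1% of all genes tested. *Nde1*, a dynein regulator of mitosis, had the largest fall, from 45.2 in each control to 22.7 and 21.5. *Hook2*, a dynein adaptor, rose 2.06-fold, and the light chain genes *Dynlt1f*, *Dynlt1c* and *Dynll2* rose 1.75-fold, 1.53-fold and 1.41-fold. *Dync1i2*, an intermediate chain, fell 1.35-fold.

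**Figure D5:**
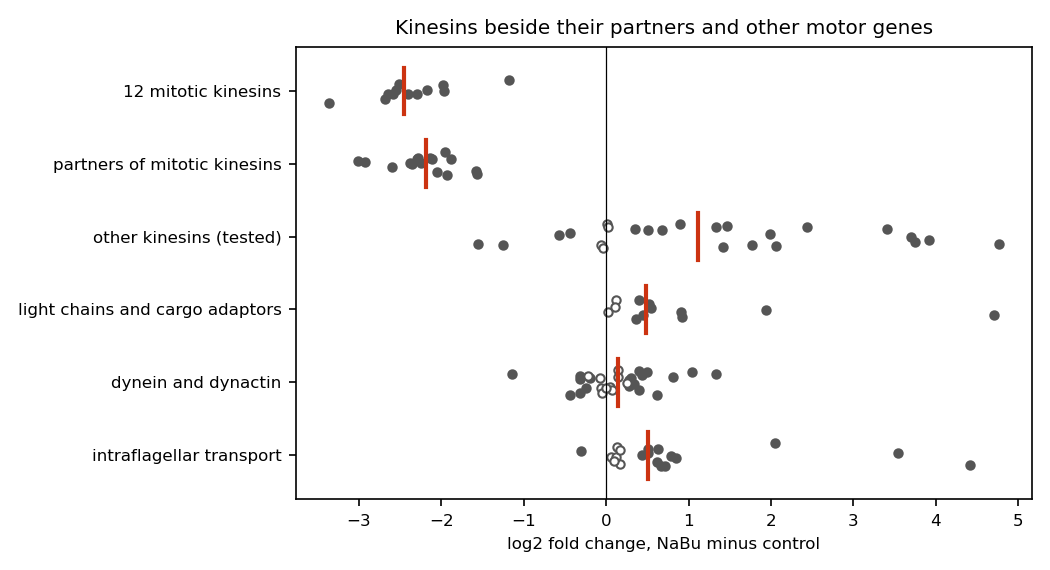
Points are tested genes by log2 fold change of NaBu against control, in 6 lists, open where a gene did not pass, and red lines are list medians (vertical scatter within a list has no meaning). The medians lie at -2.45 for the mitotic kinesins and -2.19 for their partners, and at 1.11, 0.48, 0.14 and 0.51 for the other kinesins, adaptors, dynein and dynactin, and intraflagellar transport.

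Exons of 7 kinesins overlap another annotated gene over at least 10% of their bases in GENCODE M21, and the sources used here do not state whether the libraries kept strand. For *Kif20a* the overlap with *Cdc23* on the opposite strand covers 29.3% of exon bases, and *Cdc23* went from 13.3 and 12.9 to 7.41 and 8.28 FPKM, below *Kif20a* in each control and above it in each NaBu library (6.45 and 6.05). The part of *Cdc23* reads in the *Kif20a* values was not tested. For *Kif4* an overlap of 15.1% lies with *Pdzd11*, at 27.7 and 26.1 against 15.9 and 14.4, above *Kif4* in every library. *Kif3c*, *Kif7*, *Kif2a* and *Kif1bp* also overlap opposite-strand genes, over 10.1% to 35.3% of exon bases, and the part of such reads in their values was not tested.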

How the data were processed

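RNA was measured in 2 control and 2 NaBu libraries, grouped by sample title. The submitters' processing notes name Bowtie2, RSEM and build mm10. Versions, library kit and strandedness: not given in the sources used here. The authors' deposited expected counts are unscaled estimates that need not be whole and were rounded before testing. The FPKM values deposited by the authors were used as given, and the series table held the same values. A gene that a library does not list was set to 0. RSEM divides reads shared by similar genes by estimation.

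The count test was edgeR 4.0.16 under R 4.3.3 (TMM, filterByExpr with a minimum count of 10, quasi-likelihood F test, no covariates), with Benjamini-Hochberg adjustment over all 12943 genes and a threshold of 0.05. SE is the absolute log2 fold change over the square root of F. The script was tested on simulated data. With 2 libraries per group an exact permutation cannot go below p = 0.333, so none was run. Alternatives used limma 3.58.1, DESeq2 1.42.0 and the settings in the closing section. At these depths a gene needed about 0.497 CPM to pass the filter.

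Coordinates and promoters are RefSeq's, of GRCm38.p6, which matched 17518 of 17559 genes by Entrez identifier. All kinesin symbols may be named, and of the related lists up to 4 called genes per direction by size with an FPKM of 1 or more, plus *Cenpe*, *Klc1*, *Klc2*, *Kifap3*, *Tpx2*, *Prc1* and *Racgap1*. The members and lists were chosen with earlier results of these data known. Some genes that these lists and overlaps include are not reported here.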

Additional observations from a re-analysis of the deposited data

How the results depend on the processing

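All 12 mitotic kinesins were called lower, and none higher, under every alternative run. The other kinesins called higher numbered 13 to 16 and those called lower 2 to 5, the lowest being the 2 with glmTreat against a 1.5-fold null, under which 2214 genes of all tested were higher and 1565 lower. Their median log2 fold change of 1.11 became 1.21 on library totals, 1.36 without the filter on low counts, 0.95 at 5 CPM in at least 2 libraries, 1.36 with DESeq2, 0.85 with limma on log2(FPKM + 1), 1.17 on log2(FPKM + 0.1), 0.26 on log2(FPKM + 1) without its filter, and 1.38 without *Kif1bp*, *Kif16bos*, *Kif4-ps* and *Kifc5b*. With DESeq2 and in the fits without a filter, the median of the others ran over all 28 symbols, so the members differed as well as the method. The mitotic median of -2.45 became -2.36 on library totals, -1.999 on log2(FPKM + 1) with or without the filter, and -2.34 on log2(FPKM + 0.1). Leaving out a library gave -2.54 to -2.36 for the mitotic and 1.06 to 1.13 for the other kinesins. The median of all genes was 0.102 on library totals.

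Of 497 single-gene comparisons 471 kept their direction and call, 11 lost the call, 1 gained it and 14 changed sign, all 14 in genes that had not passed. *Kif1c* became 0.0333 on library totals, 0.0318 in limma on log2(FPKM + 1) with or without the filter and 0.0334 on log2(FPKM + 0.1). *Kif5b* became 0.0592 on library totals, 0.0215 at 5 CPM, 0.0596 on log2(FPKM + 1) with or without the filter, 0.0616 on log2(FPKM + 0.1), and -0.1377 to 0.0578 when a library was left out. *Kif2a* became -0.0093 without the filter on low counts and -0.049 to 0.0637 when a library was left out, and *Kif1bp* -0.0176 to 0.0633. *Kif13a* also lost its call with DESeq2 (adjusted p = 0.251) and without the filter on low counts (adjusted p = 0.0675). The cause was not tested.

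With the replicate number as a block, 4468 genes were higher and 4385 lower, and 12 mitotic kinesins were lower with a median of -2.45, 16 others higher and 4 lower with a median of 1.12. The deviations of control 1 and NaBu 1 from their group means had a correlation of -0.03 across genes, and the labels give no pairing beyond the number. Fits that leave out a library assume that the lone library varies like the other group.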
